A study of Mus musculus with 10 samples.

Results

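Bhlhe23 was the only one of 10 neurogenic basic helix-loop-helix (bHLH) genes whose counts differed between trigeminal ganglia of Prdm12-/- and Prdm12+/+ mouse embryos past the threshold. Of all genes tested, 0.372% were called lower and 0.0944% higher. Bhlhe23 had 1 to 24 counts in knockout libraries and 122 to 444 in wild-type libraries. After scaling, every knockout library was below every wild-type library. The call was kept in 3 of 10 fits that each left out 1 library. Its closest relative Bhlhe22 and the 8 neurogenin, NeuroD and Nhlh genes did not pass the test. Among these, Neurog1, Neurod4, Neurod6 and Nhlh1 had 4 of 5 knockout libraries below the lowest wild-type library. The 10 genes were taken by Ensembl ID from the count tables: Neurog1, Neurog2, Neurod1, Neurod2, Neurod4, Neurod6, Nhlh1, Nhlh2, Bhlhe22 and Bhlhe23. They are 10 of 55414 listed IDs, and all 10 were among the 18005 genes with enough counts to be tested. The comparison asks what the constitutive absence of Prdm12, a zinc finger regulator of the PRDM family that nociceptors need in order to form, did to these factors.

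RNA was sequenced from whole trigeminal ganglia, where the somatosensory neurons of the face lie, at E13.5. The knockout group held 5 libraries (16, 29, 42, 49 and 50, genotype Prdm12-/-) and the wild-type group 5 libraries (22, 24, 32, 35 and 45, genotype Prdm12+/+). All 10 were of strain C57Bl6, and both groups carried the label Sox10 Venus+, which names a yellow fluorescent reporter of the neural crest and glial gene Sox10. Only the wild-type titles also hold the words Venus plus. The labels name no cell sorting, do not say which stretch of Prdm12 the mutant allele lacks, and do not tell whether the libraries are separate embryos. The p-values therefore describe the scatter of these libraries, some of which may be technical.

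The bHLH proteins described here bind DNA at the hexamer CANNTG, the E-box, as dimers with the widely expressed E proteins (Tcf3, Tcf4, Tcf12). Neurogenins are proneural factors: Neurog1 and Neurog2 start neuronal differentiation in cranial sensory placodes and neural crest, and trigeminal neurons need Neurog1. NeuroD and Nhlh factors act after the neurogenins in cells that leave the cycle, and Neurod2 and Neurod6 are best known from excitatory neurons of the forebrain. Bhlhe22 (also Bhlhb5) is a repressor in dorsal horn and cortical neurons that works with Prdm8. Bhlhe23 (also Bhlhb4) is known from rod bipolar cells of the retina. Id proteins and Notch-induced Hes and Hey repressors oppose this class of factors.

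Bhlhe23 (chromosome 2) and Bhlhe22 (chromosome 3) are close paralogues, and reads from stretches they share could be counted for either gene. In the GENCODE M21 transcripts (GRCm38), the longest identical run shared by Bhlhe23 and Bhlhe22 was 20 bases, against 26 bases for Neurog1 with Neurog2, 25 bases for Neurod1 with Neurod2 and 20 bases for Nhlh1 with Nhlh2. The handling of multi-mapping reads is not stated in the sources used here.

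The 250 bases before the start of Bhlhe23 (RefSeq, GRCm38.p6, chr2:180776901-180777150, minus strand) are shown because Bhlhe23 was the gene that changed. Those of Neurod1 (chr2:79456637-79456886, minus strand) and Nhlh2 (chr3:102009895-102010144, plus strand) are shown because these 2 genes had the most alike values over the libraries. Capitals mark each match to CANNTG, a motif that reads the same on both strands.
Bhlhe23: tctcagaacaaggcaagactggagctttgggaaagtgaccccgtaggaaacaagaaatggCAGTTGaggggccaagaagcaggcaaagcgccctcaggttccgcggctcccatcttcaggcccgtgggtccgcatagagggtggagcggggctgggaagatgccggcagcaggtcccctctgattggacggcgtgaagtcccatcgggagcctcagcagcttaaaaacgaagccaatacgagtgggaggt
Neurod1: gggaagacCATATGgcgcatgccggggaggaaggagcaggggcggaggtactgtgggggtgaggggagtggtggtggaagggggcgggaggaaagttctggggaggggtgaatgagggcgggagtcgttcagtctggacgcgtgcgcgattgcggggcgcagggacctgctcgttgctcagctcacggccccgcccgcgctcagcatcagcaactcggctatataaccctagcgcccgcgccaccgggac
Nhlh2: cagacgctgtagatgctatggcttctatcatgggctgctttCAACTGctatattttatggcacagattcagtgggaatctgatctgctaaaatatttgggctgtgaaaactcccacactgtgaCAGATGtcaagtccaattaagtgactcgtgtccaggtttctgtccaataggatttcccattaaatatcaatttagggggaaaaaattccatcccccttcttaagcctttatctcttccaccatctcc
Bhlhe23 had 1 E-box (CAGTTG, 190 bases before the start), Neurod1 had 1 (CATATG) and Nhlh2 had 2 (CAACTG and CAGATG). Such windows were found for 9 of the 10 genes. Neurod2 had 3 matches, Neurod6 had 2, Nhlh1 had 1, and Neurog1, Neurog2 and Neurod4 had 0. CANNTG occurs in 66.2% of the 32851 promoter windows of this length, so a match is a description of the letters. Neither CAGATG nor CATATG, searched on both strands and counted also within the CANNTG matches, was found in the window of Bhlhe23. CAGATG occurs in 14.4% and CATATG in 3.46% of all windows.

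Total counts were 3258008 in knockout 49, 13603690 in knockout 29 and between 27308327 and 33556002 in the other 8 libraries. Levels are given as CPM, counts scaled to a common library total with TMM factors. At 3 counts, the floor used here, a gene reads 0.869 CPM in knockout 49, the shallowest library. In knockout 29 the same floor is 0.236 CPM, and elsewhere it spans 0.0889 to 0.107 CPM. Prdm12 itself was at 8.74, 42.7, 10.1, 12.2 and 17 CPM in knockout 16, 29, 42, 49 and 50, against 148, 178, 246, 264 and 74.3 CPM in wild-type 22, 24, 32, 35 and 45, so no knockout library reached the lowest wild-type library. Several libraries stood apart in markers of other cells. Knockout 16 had the highest summed level of 24 central nervous system (CNS) markers (667 CPM), knockout 42 of 10 mesenchyme markers (10641 CPM), and knockout 49 of 14 pituitary and oral ectoderm markers (691 CPM). Wild-type 32 and 35 had the lowest mesenchyme sums (709.6 and 995 CPM).

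Bhlhe23 (ENSMUSG00000045493) had 0.148, 1.89, 0.107, 0.29 and 0.594 CPM in knockout 16, 29, 42, 49 and 50, against 9.17, 14.2, 9.11, 11.5 and 4.3 CPM in wild-type 22, 24, 32, 35 and 45. Every knockout library lay below every wild-type library. The counts behind these levels were 5, 24, 3, 1 and 17 in the knockout, against 275, 444, 263, 337 and 122 in the wild type, in the same order of libraries. The exact 95% Poisson interval reached 2.81 CPM in knockout 29, the highest knockout library, and 1.61 CPM for the single count in knockout 49. That of wild-type 45, the lowest wild-type library, began at 3.57 CPM. Such intervals cover counting error only.

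Bhlhe23 averaged 0.605 ± 0.742 CPM over the knockout libraries and 9.66 ± 3.65 CPM over the wild-type libraries (mean ± SD, as throughout, n = 5 each). The fitted knockout level was 0.0606 times the wild-type level. On the log2 scale the fold change was -4.04 (SE 0.7, adjusted p = 0.0319 by edgeR's quasi-likelihood test with Benjamini-Hochberg adjustment over 18005 genes). In bulk tissue, fewer cells of a type and less RNA per cell cannot be told apart. Across all genes tested, 0.372% were called lower and 0.0944% higher, and 2.92% had every knockout library below every wild-type library. The call was kept in 3 of 10 fits that each left out 1 library. The adjusted p was 0.0673 without knockout 42, 0.0907 without knockout 49 and 0.112 without knockout 50. It was 0.0631 without wild-type 22, 0.0542 without wild-type 24, 0.0858 without wild-type 32 and 0.0821 without wild-type 35. It stayed under 0.05 without knockout 16, knockout 29 or wild-type 45, and the log2 fold change stayed between -5.04 and -3.71 when any 1 library was left out.

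**Figure D1:**
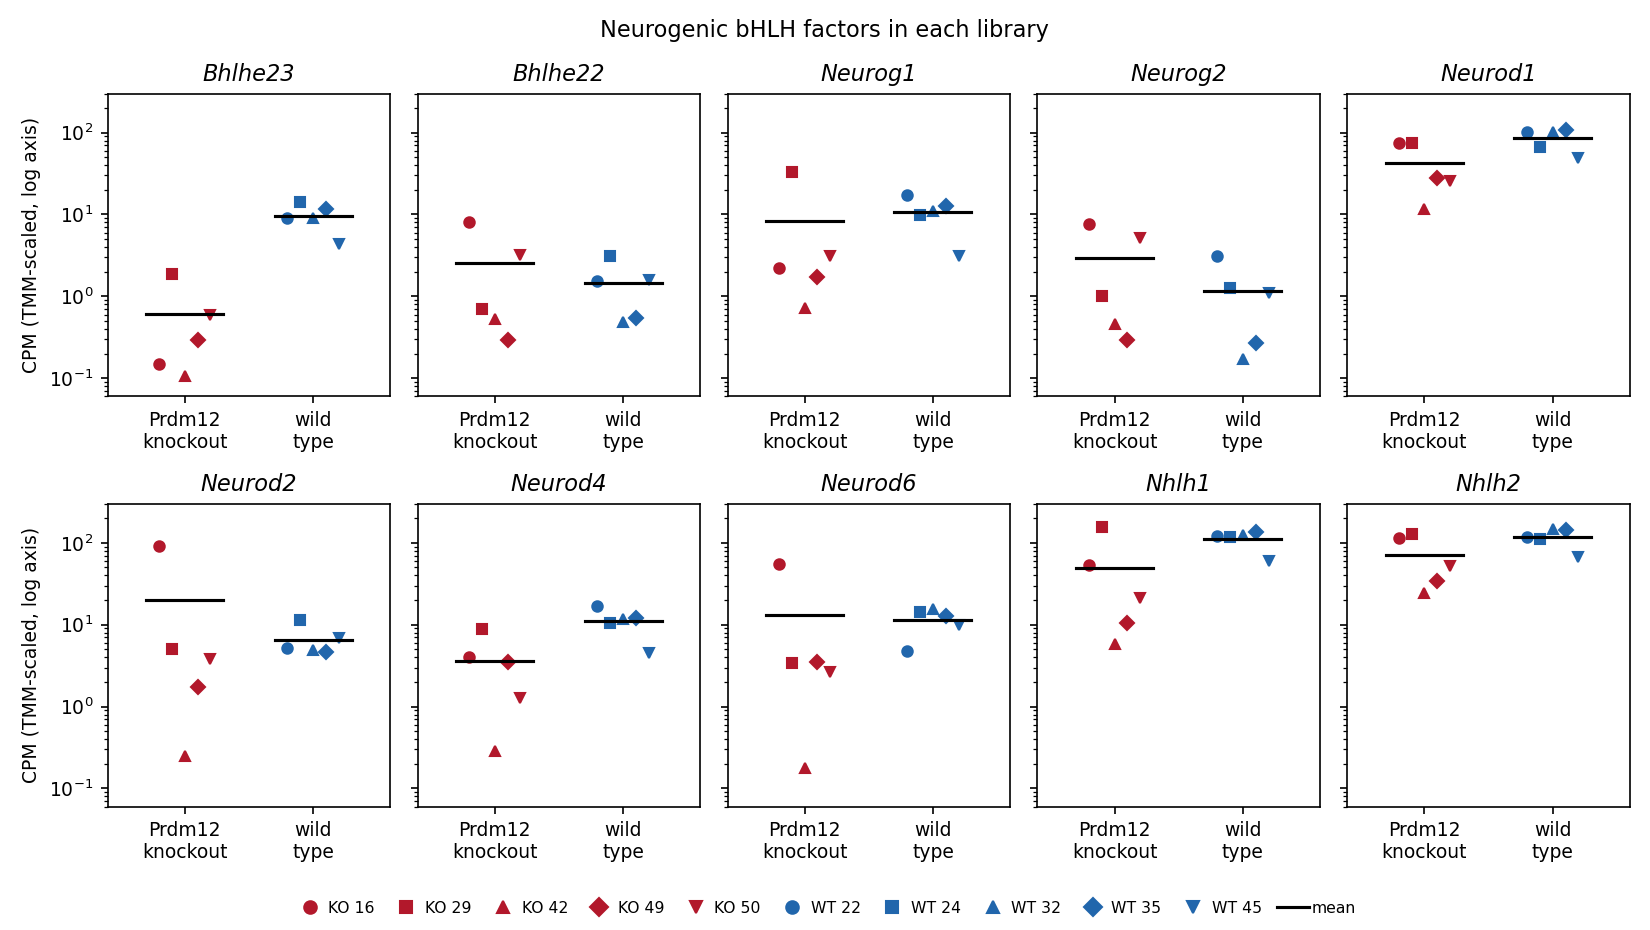
CPM of the 10 bHLH genes in each library on a log axis, with knockout libraries left of wild-type libraries in every panel and a black line at the group mean. Bhlhe23 is the only panel in which the groups do not overlap (0.107 to 1.89 CPM in knockout libraries and 4.3 to 14.2 CPM in wild-type libraries). Of all genes tested, 2.92% had every knockout library below every wild-type library.

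Bhlhe22 (ENSMUSG00000025128) had 8.12, 0.708, 0.533, 0.29 and 3.18 CPM in knockout 16, 29, 42, 49 and 50, against 1.53, 3.13, 0.485, 0.546 and 1.58 CPM in wild-type 22, 24, 32, 35 and 45. Knockout 16 and 50 were above all wild-type libraries, knockout 49 was below them with 1 count, and the other 2 lay within their range. The log2 fold change was 0.9 (SE 0.8, adjusted p = 0.632), and it was -0.17 without knockout 16. The 2 paralogues therefore had opposite signs of fold change with all libraries, and only that of Bhlhe23 was called.

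Of the 10 genes, 1 was called lower, 0 higher and 9 were not called by edgeR, and limma-voom gave the same count. DESeq2 also called Bhlhe23 lower and none of the 7 other genes for which it gave an adjusted p. It gave none for Neurod2 and Neurod6. The share of all genes called was 0.372% lower and 0.0944% higher by edgeR. It was 1.38% lower and 2.31% higher by DESeq2, and 0.411% lower and 0.128% higher by limma-voom. At an unadjusted p under 0.05 there were 2 genes, Bhlhe23 and Neurod4, against 13.1% of all genes tested. The log2 fold change was negative for 6 genes and positive for 4, with a median of -0.56 against -0.03 over all genes tested.

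Neurog1 (ENSMUSG00000048904, chromosome 13), the determination factor of trigeminal neurons, had 2.25, 33.3, 0.711, 1.74 and 3.08 CPM in knockout 16, 29, 42, 49 and 50, against 17.4, 9.81, 10.9, 12.8 and 3.13 CPM in wild-type 22, 24, 32, 35 and 45. Knockout 29 lay above the highest wild-type library, and the other 4 knockout libraries lay below the lowest, wild-type 45. The log2 fold change was -0.39 (SE 0.89, adjusted p = 0.875). Without knockout 29 it was -2.41 (adjusted p = 0.0933). Knockout 29 also had the highest summed level of 12 glial markers (5539.9 CPM, against 1634 to 2977 CPM in the other libraries). Whether that bears on the level of Neurog1 was not tested.

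Neurog2 (ENSMUSG00000027967, chromosome 3), the second neurogenin, had 7.74, 1.02, 0.462, 0.29 and 5.17 CPM in knockout 16, 29, 42, 49 and 50, against 3.07, 1.28, 0.173, 0.273 and 1.09 CPM in wild-type 22, 24, 32, 35 and 45. Knockout 16 and 50 were above all wild-type libraries, and the other 3 lay within their range, knockout 49 with 1 count. Its log2 fold change was 1.39 (SE 0.9, adjusted p = 0.513). The 2 neurogenins thus did not follow each other over the libraries: the highest knockout library was 29 for Neurog1 and 16 for Neurog2.

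Neurod1 (ENSMUSG00000034701, chromosome 2), a differentiation factor of sensory neurons and a target of neurogenins, had 74.0, 75.0, 11.6, 27.8 and 25.4 CPM in knockout 16, 29, 42, 49 and 50, against 101, 66.5, 103, 109 and 48.9 CPM in wild-type 22, 24, 32, 35 and 45. Knockout 42, 49 and 50 were below all wild-type libraries, and knockout 16 and 29 were within their range. For Neurod1 the log2 fold change was -1.0 (SE 0.46, adjusted p = 0.38). Neurod4 (ENSMUSG00000048015, chromosome 10), a NeuroD factor of early differentiating neurons, had 4.0, 8.89, 0.285, 3.47 and 1.26 CPM in those knockout libraries, against 17.1, 10.4, 11.6, 12.1 and 4.47 CPM in those wild-type libraries. Only knockout 29 reached the wild-type range. Its log2 fold change was -1.66 (SE 0.68, unadjusted p = 0.0316, adjusted p = 0.338 by edgeR).

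Neurod2 (ENSMUSG00000038255, chromosome 11) had 90.7, 5.04, 0.249, 1.74 and 3.77 CPM in knockout 16, 29, 42, 49 and 50, against 5.24, 11.3, 4.85, 4.61 and 6.87 CPM in wild-type 22, 24, 32, 35 and 45. Neurod6 (ENSMUSG00000037984, chromosome 6) had 55.8, 3.38, 0.178, 3.47 and 2.66 CPM in the same knockout libraries, against 4.77, 14.2, 15.6, 12.9 and 9.89 CPM in the same wild-type libraries. For Neurod2, knockout 42, 49 and 50 were below all wild-type libraries and knockout 29 was within their range. For both genes knockout 16 stood above all other libraries, and the highest knockout library was 364 times the lowest for Neurod2 and 314 times for Neurod6. With all libraries the log2 fold changes were 1.65 (SE 1.11, adjusted p = 0.531) for Neurod2 and 0.22 (SE 1.01, adjusted p = 0.94) for Neurod6. Without knockout 16 they were -1.26 for Neurod2 and -2.33 for Neurod6, and neither was called. For Neurod6, the other 4 knockout libraries were all below the lowest wild-type library.

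Nhlh1 (ENSMUSG00000051251, chromosome 1), a factor of newly formed neurons, had 53.6, 158, 5.8, 10.4 and 20.9 CPM in knockout 16, 29, 42, 49 and 50, against 121, 117, 126, 136 and 60.0 CPM in wild-type 22, 24, 32, 35 and 45. Knockout 29 was above every wild-type library and the other 4 knockout libraries were below every one. The log2 fold change was -1.16 (SE 0.72, adjusted p = 0.494), and it was -2.24 (adjusted p = 0.138) without knockout 29. Nhlh2 (ENSMUSG00000048540, chromosome 3), its paralogue, had 116, 127, 24.2, 34.5 and 52.3 CPM in the same knockout libraries, against 117, 112, 149, 142 and 67.0 CPM in the same wild-type libraries. Knockout 42, 49 and 50 were below all wild-type libraries, and knockout 16 and 29 were within their range. Its log2 fold change was -0.72 (SE 0.43, adjusted p = 0.477).

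Whether Bhlhe23 changed by a different amount than each of the other 9 genes was tested within libraries, as the difference of log2 CPM (prior count 2) between the 2 genes, knockout minus wild type. A gene's length cancels in this difference between genotypes. Against Bhlhe22 the difference averaged -1.57 ± 2.47 over knockout libraries and 2.86 ± 1.22 over wild-type libraries (n = 5 each). Knockout minus wild type was thus -4.43 for this pair (exact two-sided permutation p = 0.00794, adjusted over the 9 pairs p = 0.00893). All 5 knockout libraries lay below the lowest wild-type library in this measure, with 1 count of each gene in knockout 49. For this test 0.00794 is the smallest p that 5 against 5 libraries can give.

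The same adjusted p was reached against 7 further genes, each with 5 of 5 knockout libraries below the lowest wild-type library. Every pair uses the same Bhlhe23 values, in which the groups do not overlap, so the pairs are not independent results. In knockout 49 the pair with Neurog2 also rested on 1 count of each gene. The knockout minus wild-type difference was -2.74 against Neurog1, -5.17 against Neurog2, -3.04 against Neurod1, -3.66 against Neurod2, -2.13 against Neurod4, -2.23 against Nhlh1 and -3.33 against Nhlh2. Against Neurod6 it was -2.67 (exact permutation p = 0.0476, adjusted p = 0.0476, with 3 of 5 knockout libraries below the lowest wild-type library), and this pair was past the threshold under 4 of 14 alternatives. It was no longer past it without knockout 16 (adjusted p = 0.0952), knockout 49 (0.0952), knockout 50 (0.0952), wild-type 22 (0.0952), wild-type 24 (0.0952), wild-type 32 (0.0635) or wild-type 35 (0.0794). On the log2(CPM + 1) scale, which compresses low values, the pairs with Neurod4 (adjusted p = 0.0714) and Nhlh1 (adjusted p = 0.365) were not past the threshold either. The pairs with Bhlhe22, Neurog1, Neurog2, Neurod1, Neurod2 and Nhlh2 were past it under all 14 alternatives.

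**Figure D2:**
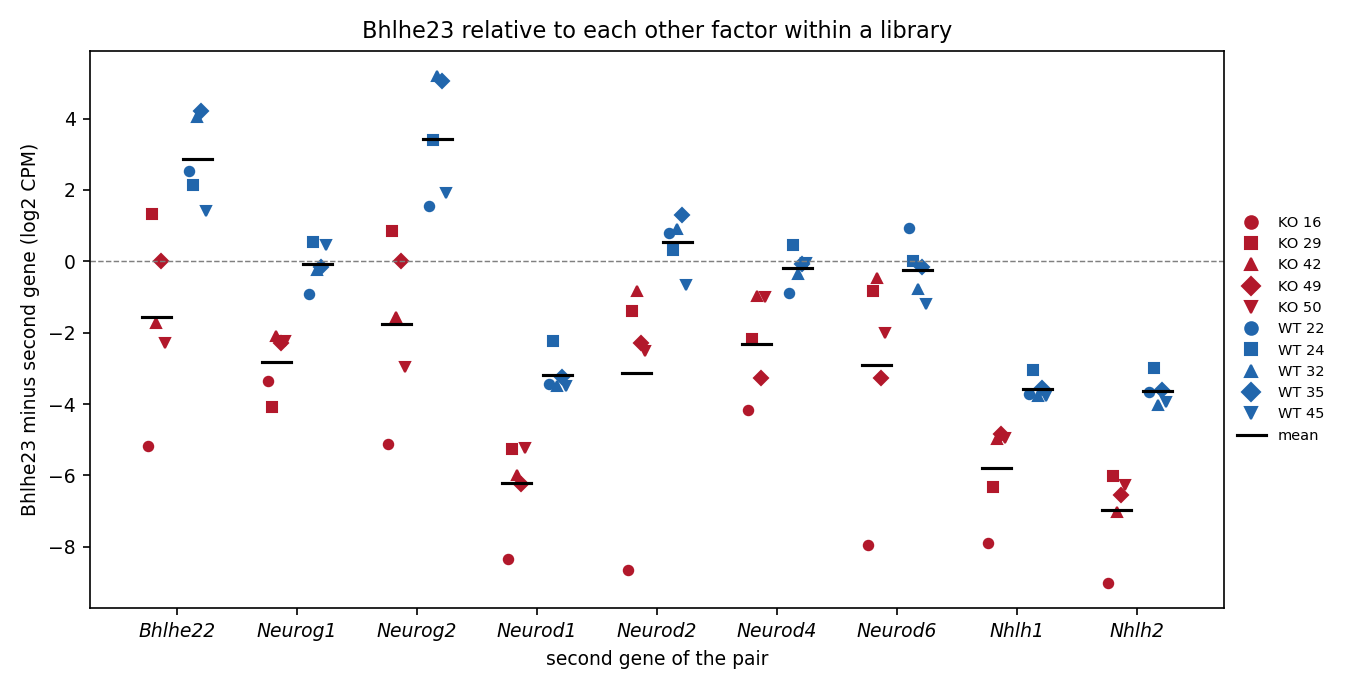
Log2 CPM of Bhlhe23 minus log2 CPM of each other gene in the same library, with knockout libraries left of wild-type libraries for each pair and black lines at group means. For Bhlhe22 the knockout mean is -1.57 and the wild-type mean 2.86, and for every pair except Neurod6 the knockout points lie below the wild-type points.

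The 10 genes were split in 2 by which knockout library was highest. Knockout 29 was the highest knockout library for 6 genes (Neurog1, Neurod1, Neurod4, Nhlh1, Nhlh2 and Bhlhe23), and wild-type 45 was the lowest wild-type library for the same 6. Knockout 16 was the highest knockout library for the other 4 (Neurog2, Neurod2, Neurod6 and Bhlhe22). Knockout 42 was the lowest knockout library for 8 genes and knockout 49 for 2. For those 2, Neurog2 and Bhlhe22, knockout 49 had 1 count each, under the floor, so its rank is uncertain. The split was close for Neurod1 (75.0 CPM in knockout 29 and 74.0 CPM in knockout 16) and for Nhlh2 (127 and 116 CPM). It describes 10 libraries and carries no test.

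**Figure D3:**
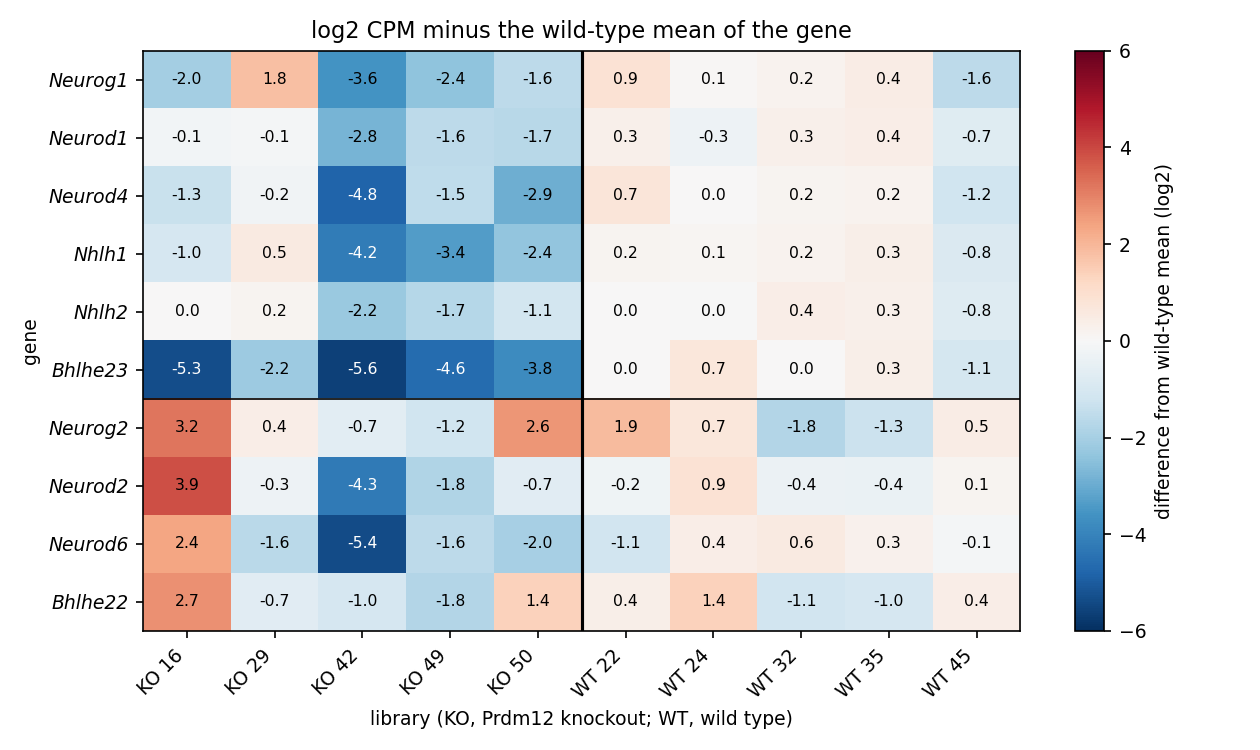
Log2 CPM of each gene minus its wild-type mean, with the 5 knockout libraries left of the 5 wild-type libraries and genes grouped by the knockout library in which they were highest. Bhlhe23 is negative in all 5 knockout libraries (-5.61 to -2.2), while Neurog2, Neurod2, Neurod6 and Bhlhe22 are positive in knockout 16.

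How alike 2 genes were over the 10 libraries was measured as the root mean square (RMS) difference of their gene-centred log2 CPM. The most alike pair was Neurod1 with Nhlh2 (0.28), whose promoter windows hold 1 and 2 E-boxes. Other alike pairs were Neurog1 with Nhlh1 (0.7), Neurod4 with Nhlh1 (0.72), Neurog2 with Bhlhe22 (0.72), Nhlh1 with Nhlh2 (0.8) and Neurod2 with Neurod6 (0.82). Neurod6 was nearer to Neurod1 (1.35) than to Bhlhe22 (1.77) or Neurog2 (2.23), which shared its highest knockout library. The least alike pairs were Neurog2 with Bhlhe23 (3.18) and Bhlhe22 with Bhlhe23 (2.82).

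CNS markers were highest in knockout 16, the highest knockout library for Neurog2, Neurod2, Neurod6 and Bhlhe22. The 24 markers summed to 667, 233, 313, 304 and 371 CPM in knockout 16, 29, 42, 49 and 50, against 197, 296, 36.0, 40.1 and 169 CPM in wild-type 22, 24, 32, 35 and 45, so 4 of 5 knockout libraries were above the highest wild-type library. Zic1 and Zic2, which dorsal neural tube and mesenchymal cells express, made up the largest share. Pax3 and Lhx2, developmental transcription factors that followed in mean level, reached 38.6 and 58.5 CPM in knockout 16, against at most 10.1 and 9.85 CPM in any wild-type library. Pax3 did not follow the CNS sum, with 37.5 CPM in knockout 29, the knockout library with the lowest sum. Every knockout library (10.6 to 38.6 CPM) was above every wild-type library for Pax3, as for 1.29% of all genes tested. Emx2 and En1 went the other way, with 0.771 and 0.83 CPM in knockout 16 and up to 11.4 and 7.9 CPM in a wild-type library. Of the 16 tested markers, 14 had a positive and 2 a negative log2 fold change. None of the 24 markers was at 0 in every library. Among those tested, 0 were called by edgeR, and 6 had an unadjusted p under 0.05, against 13.1% of all genes tested. DESeq2 called 2 higher, against 2.31% of all genes, and limma-voom called 0.

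The same libraries differed in other cells' markers. Wild-type 32 and 35, with the lowest CNS sums, also had the lowest Neurog2 and Bhlhe22 of the wild type, while their Neurod6 (15.6 and 12.9 CPM) was the highest and the third highest of the wild type. Knockout 42 had a CNS sum above every wild-type library and the lowest Neurod2 and Neurod6 of all libraries. Knockout 42, the lowest knockout library for 8 genes, had the highest mesenchyme sum and 9975 CPM over 20 general neuronal genes. Knockout 49 had 9116 CPM of those neuronal genes, and the knockout libraries together ranged from 9116 to 20343 CPM, against 11568 to 21789 CPM in the wild type. The part of these cell mixtures in the levels of the bHLH genes was not tested.

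**Figure D4:**
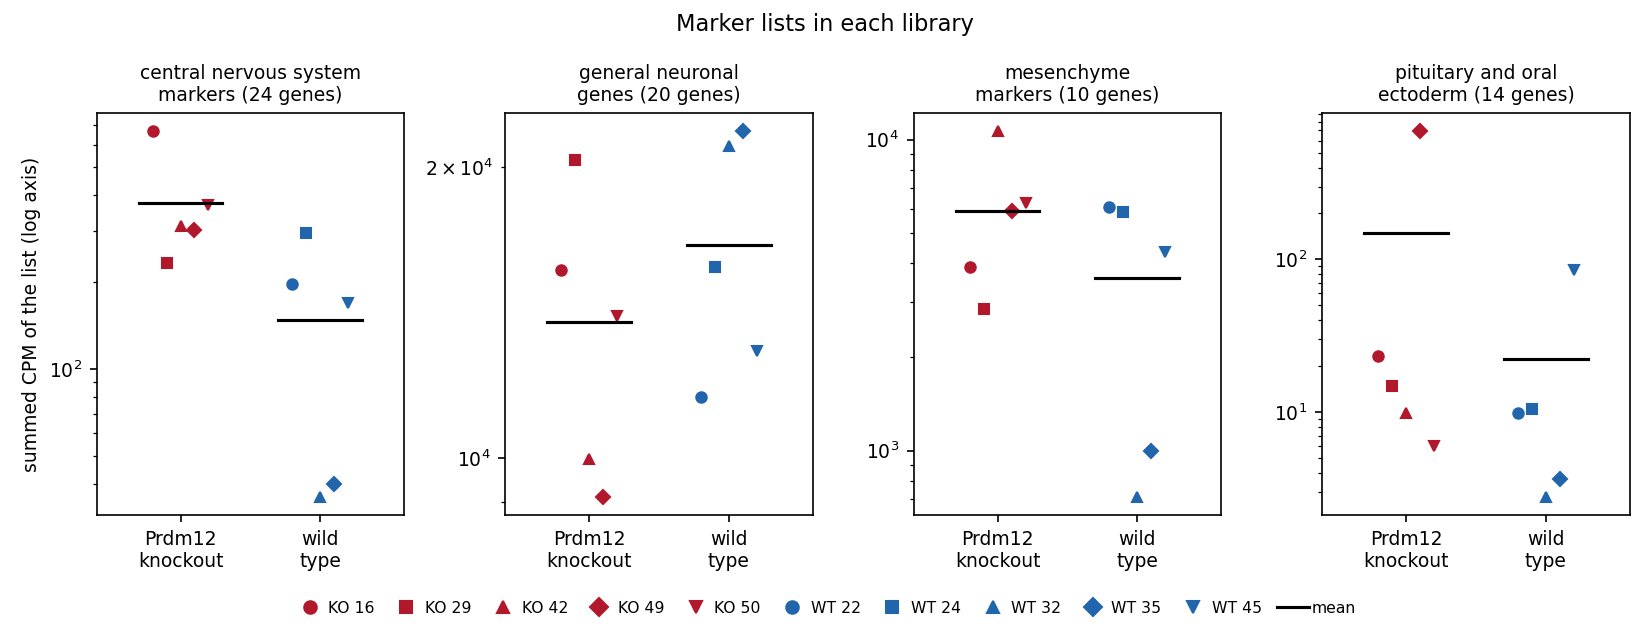
Summed CPM of 4 marker lists in each library on log axes that differ between panels, with knockout libraries left of wild-type libraries and black lines at group means. Knockout 16 has the highest CNS sum (667 CPM), knockout 42 the highest mesenchyme sum and knockout 49 the highest pituitary and oral ectoderm sum.

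Part of the nociceptor list was lower in the knockout. By edgeR, 7 of 16 tested nociceptor genes were called lower, among them Scn10a, Trpv1, Runx1, Ret, Gal and Prdm12, and 0 higher, against 0.372% and 0.0944% of all genes tested. DESeq2 called 9 lower and 1 higher, against 1.38% and 2.31% of all genes. Limma-voom called 7 lower, against 0.411% of all genes. The log2 fold change was positive for 3 genes that edgeR did not call, Trpa1 (1.52, unadjusted p = 0.0107, adjusted p = 0.245), Calca (0.59) and Tlx3 (0.18). The summed level of the 18 listed genes ranged over 859 to 1293 CPM in knockout libraries and 1876 to 4514 CPM in wild-type libraries, without overlap. Whether the fall of Bhlhe23 followed the number of nociceptors was not tested.

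Other lists of cell types were read for the same reason. By edgeR, 0 of 12 glial genes, 0 of 10 mesenchymal, 0 of 10 endothelial, 0 of 10 macrophage, 0 of 12 cycling-cell, 0 of 8 cartilage and bone, 0 of 8 muscle, 0 of 6 tested pituitary and oral ectoderm and 0 of 20 general neuronal genes were called. At an unadjusted p under 0.05 these lists held 4, 0, 9, 1, 0, 0, 0, 2 and 4 genes in that order. Of all genes tested, 13.1% were under that p, and DESeq2 called 1.38% lower and 2.31% higher. DESeq2 called 6 endothelial genes higher, 1 pituitary gene higher, 1 glial gene lower and 1 general neuronal gene lower, and limma-voom called none in these lists. By edgeR and by limma-voom, a single gene was called in each of 3 further lists. Calls over all genes tested were 0.372% lower and 0.0944% higher by edgeR, and 0.411% and 0.128% by limma-voom. Gata3 was higher among 10 otic genes (2.07 on the log2 scale, adjusted p = 0.0226), and P2rx2 was higher among 5 tested epibranchial genes (2.09, adjusted p = 0.0152). Gng8 was lower among 5 tested olfactory genes (-1.64, adjusted p = 0.0164). DESeq2 called 1 otic gene higher, 2 epibranchial genes higher and 1 lower, and 2 olfactory genes lower. Trpc2, a vomeronasal marker, was at 0 in every library.

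Per kilobase of exon, Nhlh1 had the highest level of the 10 genes in both groups, at 20.2 ± 25.7 CPM per kb in knockout and 45.5 ± 12.2 CPM per kb in wild-type libraries. In the knockout it was followed by Neurod1 (15.7), Nhlh2 (13.1), Neurod2 (6.46), Neurod6 (6.09), Neurog1 (4.87), Neurog2 (1.32), Neurod4 (1.07), Bhlhe22 (0.767) and Bhlhe23 (0.24 CPM per kb). No neighbours in that order differed by more than the larger SD of the pair. In the wild type Nhlh1 was followed by Neurod1 (31.4), Nhlh2 (21.7), Neurog1 (6.41), Neurod6 (5.34), Bhlhe23 (3.83), Neurod4 (3.33), Neurod2 (2.09), Neurog2 (0.529) and Bhlhe22 (0.436 CPM per kb). There, the steps between the 4 highest genes and the step between Neurod2 and Neurog2 exceeded the larger SD, and the others did not. Nhlh1 exceeded Neurod1 in 1 of 5 knockout libraries, knockout 29. Without it, in a check added after the data were seen, Neurod1 (12.7) and Nhlh2 (10.5) stood above Nhlh1 (9.21 CPM per kb) in the knockout, and Neurog1 averaged 1.15 CPM per kb. Without knockout 16, Neurod2 averaged 0.859 and Neurod6 1.13 CPM per kb. Bhlhe23 stood last in the knockout in both cases. With all libraries it stood 6th of 10 in the wild type and last in the knockout.

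Among all tested genes, the 5 whose pattern over the 10 libraries was nearest to that of Bhlhe23 were Prdm12 (RMS 0.61), Olfr558 (0.63), Gm35696 (0.76), D130052B06Rik (0.8) and Ppp1r17 (0.83). Olfr558, an olfactory receptor gene, averaged 0.957 ± 0.526 CPM in knockout libraries and 21.4 ± 7.9 CPM in wild-type libraries (log2 fold change -4.51, adjusted p = 0.00119). D130052B06Rik averaged 1.16 ± 0.578 CPM in knockout libraries and 27.5 ± 11 CPM in wild-type libraries (-4.51, adjusted p = 0.000503). Gm35696 was also called lower (-3.64, adjusted p = 0.0301), and Ppp1r17 was not (-2.33, adjusted p = 0.174). The measure uses the genotype difference, so these genes are a description.

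The other 9 genes had different neighbours. Neurod1 was nearest to Btbd17 (0.2), Nhlh2 to Prmt8 (0.25), Nhlh1 to Foxo6 (0.52), Neurog1 to Ppp1r14a (0.59), Neurod4 to Ccer2 (0.6) and Bhlhe22 to Plac8 (0.62). Neurod2 was nearest to Lhx2 (0.65), a gene of the CNS marker list, Neurog2 to Bhlhe22 (0.72) and Neurod6 to Neurod2 (0.82). None of these neighbours was called by edgeR.

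Partners and inhibitors of the bHLH genes showed no call. Of the 3 E proteins, 0 were called by edgeR, DESeq2 or limma-voom and 0 had an unadjusted p under 0.05. Tcf12 averaged 255 ± 38.4 CPM in knockout libraries and 201 ± 49 CPM in wild-type libraries (adjusted p = 0.443). Of 11 Id, Hes and Hey genes, 0 were called by any of the 3 tools and 0 had an unadjusted p under 0.05. Id3, which sequesters E proteins, averaged 193 ± 56.5 CPM in knockout libraries and 144 ± 50.5 CPM in wild-type libraries (adjusted p = 0.476). Hes6, a Hes family member of differentiating neurons, averaged 69.7 ± 43.7 CPM in knockout libraries and 69.2 ± 13.0 CPM in wild-type libraries (adjusted p = 0.993).

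Notch genes, through which proneural cells inhibit their neighbours, had no call by edgeR among 15 tested. Their log2 fold change was positive for 14, with a median of 0.58 against -0.03 over all genes tested. An unadjusted p under 0.05 was found for 8, against 13.1% of all genes tested. DESeq2 called 5 higher, against 2.31% of all genes, and limma-voom called 0. Lfng, a glycosyltransferase that modifies Notch receptors, averaged 16.4 ± 1.55 CPM in knockout libraries and 8.47 ± 2.31 CPM in wild-type libraries (log2 fold change 0.96, adjusted p = 0.0807). Every knockout library was above every wild-type library for Lfng, and the same held for the ligands Jag1 (adjusted p = 0.0845) and Dll4 (adjusted p = 0.104), as for 1.29% of all genes tested. Dll1, the ligand best known as a target of proneural factors, averaged 21.7 ± 8.68 CPM in knockout libraries and 10.7 ± 2.25 CPM in wild-type libraries (adjusted p = 0.156). Of 10 endothelial markers, all had a positive log2 fold change, with a median of 1.11, and Dll4 and Notch4 are also expressed by vessels. The part of vessels in the Notch values was not tested.

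Of 26 genes that act downstream of proneural factors, 1 was called lower and 0 higher, with 7 at an unadjusted p under 0.05. The shares of all genes tested were 0.372% lower, 0.0944% higher and 13.1% at an unadjusted p under 0.05. DESeq2 called 4 lower and limma-voom 1, against 1.38% and 0.411% of all genes. Insm2, a zinc finger gene related to Insm1, had 1.07, 0.944, 0.711, 1.45 and 1.19 CPM in knockout 16, 29, 42, 49 and 50, against 3.14, 5.63, 7.41, 8.23 and 4.51 CPM in wild-type 22, 24, 32, 35 and 45. Every knockout library was below every wild-type library for Insm2, as for 2.92% of all genes tested. Its log2 fold change was -2.48 (SE 0.33, adjusted p = 0.00682). Prox1, a homeobox transcription factor gene, averaged 8.72 ± 2.88 CPM in knockout libraries and 20.5 ± 4.99 CPM in wild-type libraries (adjusted p = 0.0603). Elavl4, a neuronal RNA-binding protein gene, averaged 253 ± 49.7 CPM in knockout libraries and 529 ± 182 CPM in wild-type libraries (adjusted p = 0.0851). The median of the list was -0.17, with 19 negative and 7 positive values.

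Of 19 other neural bHLH genes, 10 were tested, and 0 were called by edgeR or limma-voom and 1 higher by DESeq2. Among all genes, DESeq2 called 2.31% higher, and 13.1% of those tested had an unadjusted p under 0.05 by edgeR. Tal1, a factor of blood, vessels and some CNS neurons, was the only one of the 10 with an unadjusted p under 0.05 (12.2 ± 4.39 CPM in knockout libraries and 6.28 ± 1.55 CPM in wild-type libraries, adjusted p = 0.191). Atoh1 and Olig3, which mark the dorsal hindbrain, reached 12.4 and 13.8 CPM in knockout 16, and at most 1.05 and 0.352 CPM in any wild-type library. Neither was tested, because too few libraries had enough counts of them for the filter. Atoh1 had 423 counts over the knockout and 41 over the wild-type libraries, and Olig3 had 504 and 16.

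Genes beside Bhlhe23 did not pass the test. Slc17a9, Gid8 and Dido1 on one side and Ythdf1 and Nkain4 on the other had adjusted p-values between 0.54 and 0.988 by edgeR, and Birc7 was not tested. In GENCODE M21, Bhlhe23 overlaps the non-coding gene Gm14343 on the same strand, which had 0 counts in the knockout libraries together and 6 in the wild-type libraries together. Neurod1 overlaps Cerkl on the same strand (1.5 ± 0.368 CPM in knockout libraries and 2.43 ± 0.354 CPM in wild-type libraries, adjusted p = 0.278). It also overlaps Gm26755, a non-coding gene on the opposite strand. Counting may give such reads to one gene, the other or neither, so the counts of Cerkl and Neurod1 in the overlap cannot be told apart.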

How the data were processed

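Total RNA of 10 trigeminal ganglion samples was sequenced, and samples were grouped by the genotype label (5 Prdm12-/-, 5 Prdm12+/+). The deposited files hold raw counts per Ensembl gene ID, 1 file per sample. Per the submitters' processing notes, the authors' tools were featureCounts 1.5.0-p1 (counting), STAR 2.7.10a (alignment) and bcl2fastq 2.20.0.422. Those notes list 2 builds, GRCm39 and mm10, and no role for either. Annotation release, strandedness and the handling of multi-mapping reads are not stated in the sources used here, so reads of paralogues or overlapping genes may have been split or lost. Titles begin with a different letter in each genotype, and only the wild-type titles hold the words Venus plus. Handling, any selection of cells and genotype therefore cannot be told apart.

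Libraries of a group were checked for duplicates with a chi-square over genes with at least 200 counts, whose lowest value among 20 pairs was 9.88 per gene, and all were kept. Genes were filtered with filterByExpr (minimum count 10), scaled with TMM and compared with edgeR's quasi-likelihood test (edgeR 4.0.16, R 4.3.3), with Benjamini-Hochberg adjustment over 18005 genes and a threshold of 0.05. This fit gives each adjusted p of a gene where no other tool is named, and each log2 fold change (knockout over wild type). Each SE was derived as the absolute log2 fold change divided by the square root of the F statistic of that test. Alternatives were RLE, upper quartile and neuronal-gene factors, no filter or a stricter one (at least 1 CPM in 5 libraries), DESeq2 1.42.0, limma-voom (limma 3.58.1), and leaving out each library or 3 sets of libraries. Gene pairs were compared within libraries with exact permutation tests over all assignments of 5 libraries among 10 (SciPy 1.17.1), also with a prior count of 0.5 and with log2(CPM + 1).

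Named genes were Prdm12, the 10 bHLH genes, the genes past the threshold and otherwise up to 4 by level or p of each gene list, and the nearest genes by root mean square difference (5 for Bhlhe23, 3 for the others, of which the first is given). Emx2, En1, Atoh1, Olig3, Calca, Tlx3 and Trpa1 were named after their values were seen. The bHLH genes and the lists were chosen with earlier results of these data known. Symbols matched 52081 IDs, and exon lengths are those of GENCODE M21 (GRCm38). Promoter windows are from RefSeq (GRCm38.p6).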

Additional observations from a re-analysis of the deposited data

Results flagged for a closer look

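In each group of 5 libraries, the gap between the most extreme library and its nearest neighbour was set against the range of the group, for the 10 bHLH genes and Prdm12 (22 groups). Chance alone sets apart about 1 in 20 groups, and 6 were set apart here on the CPM scale. On log2 CPM, a scale added after the data were seen, 1 of them was set apart, wild-type 45 for Nhlh1. On the CPM scale, knockout 29 was set apart as the highest knockout library for Neurog1 (33.3 CPM), for Bhlhe23 (1.89 CPM) and for Prdm12 (42.7 CPM). Its Bhlhe23 level was still below the lowest wild-type library (4.3 CPM). Knockout 16 was set apart as the highest knockout library for Neurod2 (90.7 CPM) and Neurod6 (55.8 CPM). Wild-type 45 was set apart as the lowest wild-type library for Nhlh1 (60.0 CPM), and it also had the lowest wild-type level of Bhlhe23 and Prdm12 (74.3 CPM).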

How the results depend on the processing

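No paired analysis was possible because the 2 groups share no replicate numbers. The log2 fold change of Bhlhe23 was negative under all 20 alternatives (-5.09 to -3.7) and was called under 11 of them (adjusted p from 1.82e-07 by DESeq2 to 0.189). It was -3.93 (adjusted p = 0.189) without wild-type 32 and 35 and -3.7 (adjusted p = 0.0888) without knockout 16, wild-type 24 and wild-type 45. Leaving out 1 library at a time gave -5.04 to -3.71 with 3 of 10 fits calling it. Such fits have fewer samples. None of the other 9 bHLH genes was called under any of the 20 alternatives, but DESeq2 gave no adjusted p for Neurod2 and Neurod6. The sign reversed for Bhlhe22 without knockout 16 (-0.17). For Neurod2 it reversed without knockout 16 (-1.26), without knockout 16, wild-type 24 and wild-type 45 (-0.77) and by limma-voom (-0.47). For Neurod6 it reversed in the same 3 settings (-2.33, -2.21 and -1.66). Leaving out 1 library at a time gave -0.17 to 1.45 for Bhlhe22, -1.26 to 1.98 for Neurod2 and -2.33 to 0.55 for Neurod6. The cause was not tested. Factors from general neuronal genes moved the median of all genes by 0.3 on the log2 scale and gave -3.9 for Bhlhe23 (adjusted p = 0.0163).

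Genes called higher numbered 17, against 55 with no filter, 26 with a stricter filter, 0 without wild-type 32 and 35, 6 without knockout 29 and 49, 7 without knockout 16, wild-type 24 and wild-type 45, 399 by DESeq2, and 2 to 35 without 1 library. Genes called lower numbered 67, against 42 with neuronal-gene factors, 102 with no filter, 19 without wild-type 32 and 35, 26 without knockout 16, wild-type 24 and wild-type 45, 238 by DESeq2, and 27 to 88 without 1 library. The difference between Bhlhe23 and Bhlhe22 was past the threshold under all 14 alternatives (-5.92 to -2.96). Those that left out libraries could not fail, because the groups do not overlap for this pair. The difference against Neurod4 and against Nhlh1 was lost with log2(CPM + 1) (adjusted p = 0.0714 and 0.365), and that against Neurod6 under 10 of 14. Knockout 49, with 3258008 counts, limits what can be said of genes under its floor of 0.869 CPM.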
